A study of Homo sapiens with 4 samples.

Results

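7SK RNA, encoded by RN7SK, is a small nuclear RNA made by RNA polymerase III that holds the transcription kinase P-TEFb in an inactive state. MEPCE caps one end of the RNA and LARP7 binds the other, and together with 7SK they form a stable core. HEXIM1 or HEXIM2 joins this core and inhibits P-TEFb, which is the kinase CDK9 with cyclin T1 (CCNT1) or cyclin T2 (CCNT2). Released P-TEFb phosphorylates pausing factors and RNA polymerase II and so starts productive elongation. These 8 genes, RN7SK, LARP7, MEPCE, HEXIM1, HEXIM2, CDK9, CCNT1 and CCNT2, were followed here by their symbols among 61543 genes, and all 8 were found and passed the filter on low counts. What was measured is RNA, so for 7 members it is the message and not the protein, and the assembled complex was not measured.

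RNA was taken from medium conditioned by HEK293T, a line derived from human embryonic kidney. EPN24 is a protein that assembles into nanocages, shells that leave the cell with RNA inside. The group named EPN24-Cas13d has 2 libraries and joins the nanocage protein to Cas13d, a CRISPR enzyme that attaches to RNA, while the group named EPN24 has 2 libraries of the plain nanocage. The contrast concerns cellular RNA in the medium, with Cas13d joined to the nanocage protein or without it. All libraries carried ERCC RNA, synthetic transcripts added in a fixed amount to 200 µl of cleared supernatant before extraction. The labels name no guide RNA, no treatment and no time point, and do not say whether replicates were separate cultures, so each p-value reflects variation among these 4 libraries alone, possibly technical.

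Libraries held 5097332 and 4863449 gene counts with Cas13d and 1830860 and 1903492 without. The added ERCC RNA made up 1.73% and 1.66% of the counts with Cas13d and 19.6% and 20.9% without, so the EPN24-Cas13d supernatant held more cellular RNA for the same ERCC RNA. More nanocages, more RNA in each nanocage and RNA of the supernatant outside nanocages cannot be told apart in such bulk RNA. No library came from cells without a nanocage. Values below are CPM, counts relative to library size after TMM scaling, which sets a gene against the other tested genes. TMM factors were 0.820 and 0.821 with Cas13d and 1.29 and 1.15 without, so these CPM are not plain shares of the counts. Next to them stand counts per 1000 ERCC counts, which follow RNA per volume. Of 8 markers known from this cell line, all were detected in every library, with VIM, vimentin, at 1803 and 1821 CPM against 125 and 157 and a log2 fold change of 3.69, and LIN28B, an RNA-binding protein of embryonic cells, at -3.48. In all, 5 of the 8 were higher and 2 lower, where 80.9% of all tested genes were called, 32.6% higher and 48.2% lower. Their summed level was 2096 and 2096 CPM in EPN24-Cas13d and 365 and 382 CPM in EPN24. The 6 blood cell markers summed to 3.37 and 2.89 CPM in EPN24-Cas13d and to 30.6 and 20.6 CPM in EPN24, with HBA1, a haemoglobin gene, at 0 in all 4 libraries. HBB, the other haemoglobin gene, was at 0 in 3 of 4. CD3E, a T cell marker, had 0 and 6 counts with Cas13d and 20 and 15 without (-3.36, but -2.31 without EPN24-Cas13d replicate 1 and -7.48 without EPN24-Cas13d replicate 2). The 6 liver markers summed to 2.89 and 3.52 CPM in EPN24-Cas13d and to 23.2 and 19.9 CPM in EPN24. FGB, a fibrinogen chain gene, had 0 and 0 counts in EPN24-Cas13d against 7 and 16. SERPINA1, a protease inhibitor gene, had 0 and 2 counts against 12 and 6 (-3.86), and was not called without EPN24-Cas13d replicate 1 (-2.85, adjusted p = 0.128, edgeR quasi-likelihood), while it stood at -6.52 without EPN24-Cas13d replicate 2. What part RNA of such other cells has in the members' values was not tested.

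The sequence of 7SK RNA is shown because it had the highest level per kb of the 8 genes in both groups and because the same stretch is annotated a second time. It is the RN7SK transcript of GENCODE release 29 (build GRCh38), chromosome 6, 52995621 to 52995948 on the plus strand, a single exon of 328 bases, of which the first 300 are printed. Capitals mark GATC, which as GAUC in the RNA is known as the motif that HEXIM proteins contact in the first hairpin. All 3 copies lie near the start, at bases 12 to 15, 41 to 44 and 63 to 66. They are marked by sequence alone, and which of the 3 HEXIM proteins contact was not tested. GATC reads the same on both strands, and 10.2% of the 4687 GENCODE transcripts within 28 bases of its length hold at least 3 copies.
RN7SK: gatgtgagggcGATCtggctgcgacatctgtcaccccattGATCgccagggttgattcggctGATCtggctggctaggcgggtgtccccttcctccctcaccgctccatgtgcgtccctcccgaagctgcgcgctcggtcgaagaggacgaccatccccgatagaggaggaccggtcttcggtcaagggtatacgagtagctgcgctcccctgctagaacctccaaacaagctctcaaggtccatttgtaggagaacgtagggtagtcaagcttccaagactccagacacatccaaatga

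7SK RNA was lower in EPN24-Cas13d as a share of the RNA, and per volume the difference was small and not called. It measured 102 and 138 CPM in the EPN24-Cas13d libraries and 1555 and 1635 CPM in the EPN24 libraries, means of 119.9 ± 25.1 and 1595 ± 56.3 CPM (SD, n = 2). The groups were far apart, with a log2 fold change of -3.73, an approximate SE of 0.13 and an adjusted p of 8.26e-12 (edgeR quasi-likelihood, Benjamini-Hochberg over the 20476 tested genes). Of all gene counts 7SK took 0.00834% and 0.0112% with Cas13d and 0.190% and 0.181% without it, a 19.0-fold lower share (exact permutation test, two-sided, p = 0.333, the smallest that 2 against 2 libraries allow). With the 7SL RNA loci left out of the total the share was 36.6-fold lower. Per 1000 ERCC counts it stood at 4.74 and 6.67 with Cas13d and at 7.83 and 6.87 without. All 4 values lie close together there, and EPN24-Cas13d replicate 2 was just below EPN24 replicate 2. The ratio of the means was 0.776 (exact permutation p = 0.333), and with ERCC scaling the log2 fold change was -0.37 (SE 0.18, adjusted p = 0.0895, edgeR quasi-likelihood), which was not called. Without EPN24-Cas13d replicate 2 the log2 ratio per ERCC count was -0.63 and without EPN24-Cas13d replicate 1 it was -0.14, so 1 library decides this small difference.

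A second annotated row, named 7SK (ENSG00000202198.1), covers all 328 bases of RN7SK (ENSG00000283293.1). Both rows held the same values, 425 and 547 counts with Cas13d and 3486.5 and 3453 without, as when each read is divided between overlapping rows. The overlap option of the counting step is not given in the sources used here. If reads were divided, the whole 7SK count would be 850, 1094, 6973 and 6906, and the log2 fold change stays at -3.73. The share of gene counts would then be 0.0167% and 0.0225% with Cas13d and 0.381% and 0.363% without. Shares, levels and ratios of 7SK given elsewhere are from the RN7SK row alone. Copies of 7SK elsewhere in the genome, the RN7SKP pseudogenes, had 219 rows, none of which passed the filter. Together they held 49.0 and 38.7 counts with Cas13d and 261 and 257 without, between 7.07% and 11.5% of the RN7SK count of the same library. RN7SKP23 led over the 4 libraries with 9.5 and 11.5 against 2.5 and 4 counts, on a row of 4301 bases. RN7SKP269 held 2.5, 4, 4 and 4 counts and RN7SKP91 held 2, 0, 2 and 10. Which of these reads came from 7SK itself was not tested.

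The messages of the 2 proteins that stay bound to 7SK went opposite ways. MEPCE, the capping enzyme (ENSG00000146834.15, chromosome 7, 100428322 to 100434126, plus strand), measured 264 and 256 CPM with Cas13d and 14.2 and 18.9 CPM without. The groups were far apart and each was narrow, with a log2 fold change of 3.97 (SE 0.18, adjusted p = 7.04e-11, edgeR quasi-likelihood). Per 1000 ERCC counts MEPCE rose from 0.0755 ± 0.00569 to 12.3 ± 0.110 (SD, n = 2), a 163-fold difference. LARP7, which protects the end of 7SK (ENSG00000174720.18, chromosome 4, 112637077 to 112657696, plus strand), had 3 and 1 counts with Cas13d and 34 and 35 without, or 0.721 and 0.252 against 15.2 and 16.6 CPM. In the first group it lay at or under the floor of 3 counts, which corresponded to 0.721 and 0.755 CPM there. Its log2 fold change was -4.90 (SE 0.67, adjusted p = 1.54e-05, edgeR quasi-likelihood), and from its 4 counts against 69 the log2 ratio is -5.01 (exact binomial bounds at 95%: -6.93 and -3.59, counting error only). Without EPN24-Cas13d replicate 1 it stood at -5.68 and without EPN24-Cas13d replicate 2 at -4.31, both called. With ERCC scaling LARP7 was at -1.63 and not called (adjusted p = 0.0956, edgeR quasi-likelihood).

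MEPCE shares 61.3% of its exon bases with a second protein-coding row on the same strand, ENSG00000289690, which held 819 and 769 counts with Cas13d and 22 and 26.8 without. Summed with it, MEPCE stood at a log2 fold change of 4.03, close to its own. Levels and ratios of MEPCE given elsewhere are from its own row alone. LARP7 shares 16.3% of its exon bases with MIR302CHG on the other strand. Without knowledge of the strand setting, reads of the pair cannot be told apart, and MIR302CHG itself held 0 and 1 counts against 4.83 and 9.

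The first 90 coding bases of these 2 messages are shown because the pair differs widely in base composition as well as in level. Capitals mark G and C, which make up 34.4% of the LARP7 stretch and 72.2% of the MEPCE stretch. Over the whole coding part the shares were 38.6% and 63.0%. Among the other messages the same stretch did not separate those that rose under TMM from those that fell. CCNT2, which fell, and HEXIM2, which rose, both had 65.6% there. HEXIM1, which fell, and CDK9, which rose, both had 51.1%, and CCNT1, which fell, lay just below them.
LARP7: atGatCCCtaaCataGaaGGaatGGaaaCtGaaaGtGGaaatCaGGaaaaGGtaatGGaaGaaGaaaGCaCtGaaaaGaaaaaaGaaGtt
MEPCE: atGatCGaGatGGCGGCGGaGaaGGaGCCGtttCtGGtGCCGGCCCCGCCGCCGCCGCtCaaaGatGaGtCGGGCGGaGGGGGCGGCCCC

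The HEXIM paralogs, the inhibitors of P-TEFb, also parted. HEXIM1 (ENSG00000186834.4, chromosome 17, 45148475 to 45152099, plus strand) measured 3.44 and 2.01 CPM with Cas13d and 34.8 and 32.0 CPM without, a log2 fold change of -3.61 (SE 0.38, adjusted p = 9.95e-07, edgeR quasi-likelihood). HEXIM2, its neighbour on the same strand (ENSG00000168517.11, chromosome 17, 45160700 to 45170040), measured 11.98 and 11.8 CPM with Cas13d and 3.35 and 5.68 CPM without, a log2 fold change of 1.37 (SE 0.47, adjusted p = 0.0153, edgeR quasi-likelihood). Neither gene's groups overlapped. Per 1000 ERCC counts HEXIM1 stood at 0.129 ± 0.0442 and 0.155 ± 0.0290 (SD, n = 2), which overlap, and HEXIM2 at 0.565 ± 0.0117 and 0.0204 ± 0.00496, a 27.7-fold difference. With ERCC scaling HEXIM1 was at -0.28 (adjusted p = 0.632, edgeR quasi-likelihood) and HEXIM2 at 4.72.

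The rise of HEXIM2 under TMM rests on 7.5 and 12 counts in EPN24. It was not called with total-count scaling (0.80), by the DESeq2 Wald test (1.35, adjusted p = 0.107), with counts halved (0.98), with the GC trend removed (-0.14), with the mean density of olfactory receptor genes, a measure of sparse reads, subtracted (1.02), without EPN24 replicate 1 (0.93) or without EPN24-Cas13d replicate 1 (1.42). A lncRNA on the other strand, ENSG00000267288, covers 51.1% of the exon bases of HEXIM2 and held 29.5 and 27.5 counts against 12.5 and 13. Summed with it HEXIM2 stood at 0.86 and was still called higher (adjusted p = 0.0312, edgeR quasi-likelihood). HEXIM2-AS1, also on the other strand, covers 28.2% of HEXIM2 and 14.3% of HEXIM1. The longest run of bases that the HEXIM1 and HEXIM2 transcripts have in common is 14, well short of the 150-nt reads.

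P-TEFb itself split between kinase and cyclins. CDK9, the kinase (ENSG00000136807.14, chromosome 9, 127785679 to 127790792, plus strand), measured 149 and 143 CPM with Cas13d and 9.81 and 8.05 CPM without, a log2 fold change of 4.02 (SE 0.22, adjusted p = 4.46e-10, edgeR quasi-likelihood). Per 1000 ERCC counts it stood at 6.93 ± 0.00749 against 0.0416 ± 0.0110 (SD, n = 2), a 167-fold difference and close to that of MEPCE. CCNT2, cyclin T2 (ENSG00000082258.13, chromosome 2, 134918235 to 134959342, plus strand), had 6 and 2 counts with Cas13d and 77 and 76 without. That is 1.44 and 0.503 against 34.3 and 36.0 CPM, a log2 fold change of -5.11 (SE 0.45, adjusted p = 1.62e-07, edgeR quasi-likelihood), and EPN24-Cas13d replicate 2 lay under its floor of 0.755 CPM. From 8 counts against 153 the log2 ratio is -5.16, with exact binomial bounds at 95% of -6.40 and -4.14. Without EPN24-Cas13d replicate 1 it stood at -5.94 and without EPN24-Cas13d replicate 2 at -4.50, both called. CCNT2 was the only member still called lower with ERCC scaling, at -1.79 (adjusted p = 0.0167, edgeR quasi-likelihood).

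CCNT1, cyclin T1 (ENSG00000129315.11, chromosome 12, 48688458 to 48716998), lay between these. It measured 8.65 and 16.1 CPM with Cas13d and 37.0 and 25.6 CPM without, a log2 fold change of -1.34 (SE 0.34, adjusted p = 0.00245, edgeR quasi-likelihood). The groups did not overlap, but the libraries of each group were spread more widely than for CDK9. Without EPN24-Cas13d replicate 1 it stood at -0.89 and was not called (adjusted p = 0.0807, edgeR quasi-likelihood), and with the GC trend removed at -0.05. With ERCC scaling CCNT1 turned to 2.00 and was called higher, with 0.591 ± 0.267 against 0.147 ± 0.0559 per 1000 ERCC counts (SD, n = 2), which do not overlap.

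The cyclin messages are shown where they are most alike, to see how far reads could be shared. Capitals mark the longest run common to both, 20 bases, at coding bases 599 to 658 of CCNT1 and 596 to 655 of CCNT2 with their surroundings. A 150-nt read extends past it on both.
CCNT1: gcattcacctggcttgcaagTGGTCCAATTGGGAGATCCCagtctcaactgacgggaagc
CCNT2: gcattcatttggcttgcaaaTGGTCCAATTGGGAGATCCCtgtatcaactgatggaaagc

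**Figure D1:**
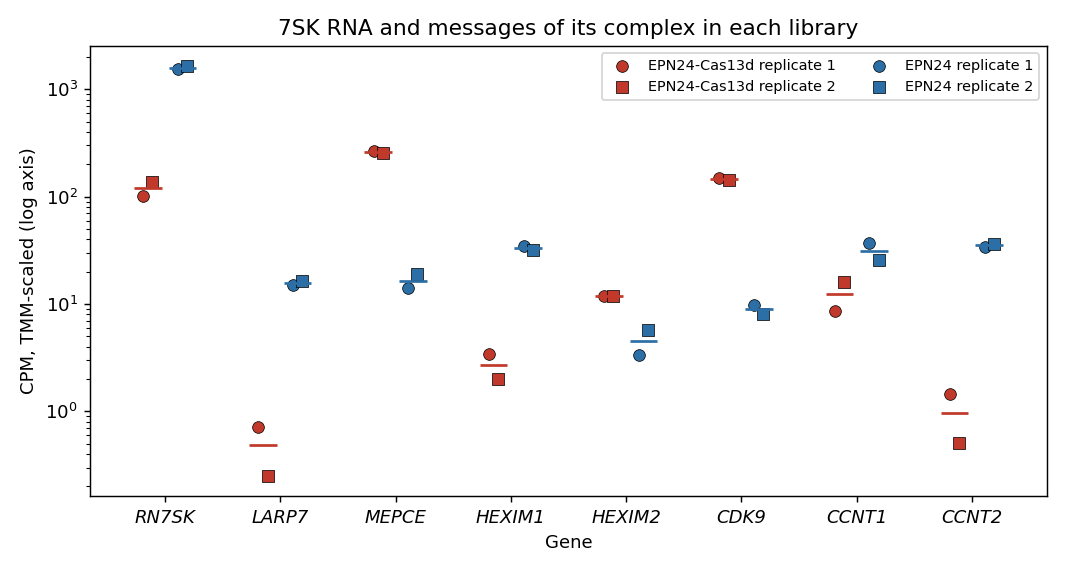
TMM-scaled CPM on a log axis for each of the 8 genes, with a point for every library and a bar at the mean of each group of 2. MEPCE, CDK9 and HEXIM2 are higher in EPN24-Cas13d and the other 5 are lower, with the widest gaps at CCNT2 and LARP7.

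Under TMM 3 of the 8 members were called higher and 5 lower at an adjusted p of 0.05. The filter needs enough counts in only 2 libraries. Of the 5, LARP7 (3 and 1 counts in EPN24-Cas13d), CCNT2 (6 and 2) and HEXIM1 (14.3 and 8) passed it only through EPN24, where they are higher. Among all 20476 tested genes 80.9% were called, 32.6% higher and 48.2% lower, so a call in either direction was common in this comparison and 8 calls among 8 genes are little above that share. Their median log2 fold change was -2.48, and that of all tested genes was -0.96. With ERCC scaling, which moved the median of all tested genes up by 3.34 to 2.38, 4 members were called higher and 1 lower, where 60.7% of all tested genes were called, 58.4% higher and 2.33% lower, and the members' median was 0.86. Relative to the median of all tested genes MEPCE, CDK9 and HEXIM2 lay above it and RN7SK, LARP7, HEXIM1, CCNT1 and CCNT2 below it under both scalings. The authors' deposited table gives log2 fold changes of 7.31 for MEPCE, 7.35 for CDK9, 4.72 for HEXIM2, 1.95 for CCNT1, -1.84 for CCNT2, -0.41 for RN7SK, -1.69 for LARP7 and -0.32 for HEXIM1. The authors' deposited table calls 4 of these, MEPCE, CDK9, HEXIM2 and CCNT1, below an adjusted p of 0.05. Over all tested genes those deposited fold changes differed from the ERCC-scaled ones by a median of -0.03 and from the TMM ones by 3.32.

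**Figure D2:**
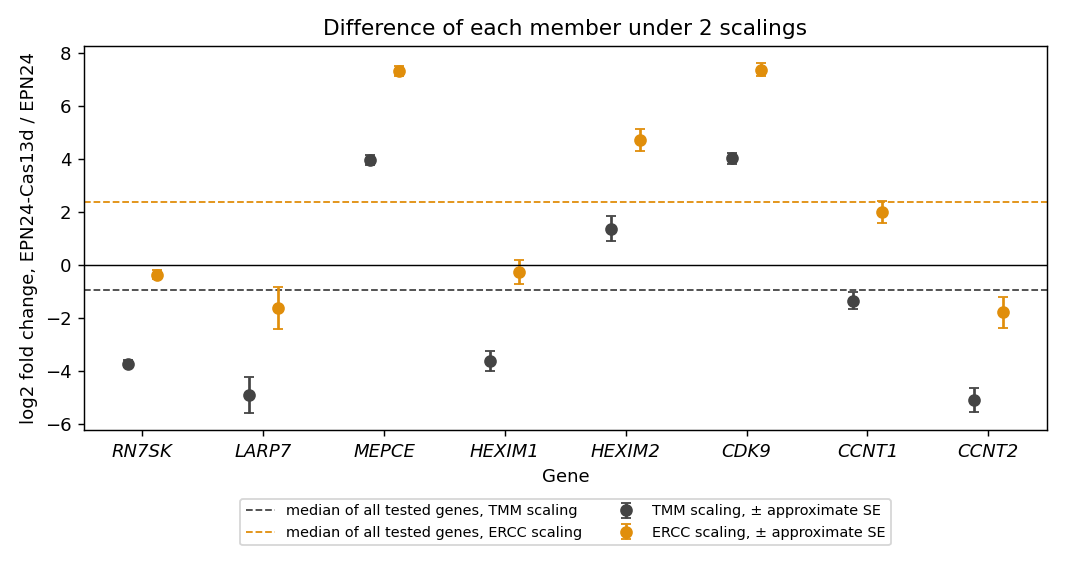
Log2 fold change of EPN24-Cas13d over EPN24 for each member under TMM scaling and under ERCC scaling, with bars of 1 approximate SE and dashed lines at the median of all tested genes. The scaling shifts every member by a like amount, so the order of the 8 genes stays, while RN7SK and HEXIM1 move from -3.73 and -3.61 to just under 0.

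Ratios between genes of the same library do not depend on the scaling. They and the levels per kb use the deposited gene length, for LARP7 8094 bp against 2332 bases in its longest GENCODE transcript. The size of each ratio with LARP7 depends on that length, while the comparison between groups does not. Counts per kb of HEXIM2 per HEXIM1 were 6.28 and 10.6 in EPN24-Cas13d and 0.174 and 0.321 in EPN24, so the more abundant paralog changed between the groups. MEPCE per LARP7 was 877 and 2441 against 2.25 and 2.74, where the spread of the first pair follows the 3 and 1 counts of LARP7. CDK9 stood at 37.3 and 21.3 times the sum of its cyclins with Cas13d and at 0.371 and 0.361 times without. CCNT1 per CCNT2 was 7.38 and 39.4 against 1.33 and 0.874. The ratio of MEPCE to CDK9 was 1.57 and 1.59 against 1.29 and 2.10, and these values overlap.

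7SK RNA was also set against the messages of its own complex. RN7SK per MEPCE was 3.98 and 5.53 in EPN24-Cas13d and 1126 and 887 in EPN24, and RN7SK per CDK9 was 6.26 and 8.82 against 1452 and 1861. RN7SK per LARP7 was 3496 and 13498 against 2530 and 2435. Against RN7SL1, the RNA part of the signal recognition particle and another product of RNA polymerase III, 7SK stood at 0.00779 and 0.00913 against 0.00805 and 0.00696, and these values overlap. Of the 9 ratios compared, 7 did not overlap between groups. Each of these had an exact permutation p of 0.333, two-sided, the smallest possible here, and 0.429 after Benjamini-Hochberg adjustment. How often ratios of other gene pairs overlap was not tested, and 80.9% of all tested genes were called between the groups under TMM.

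**Figure D3:**
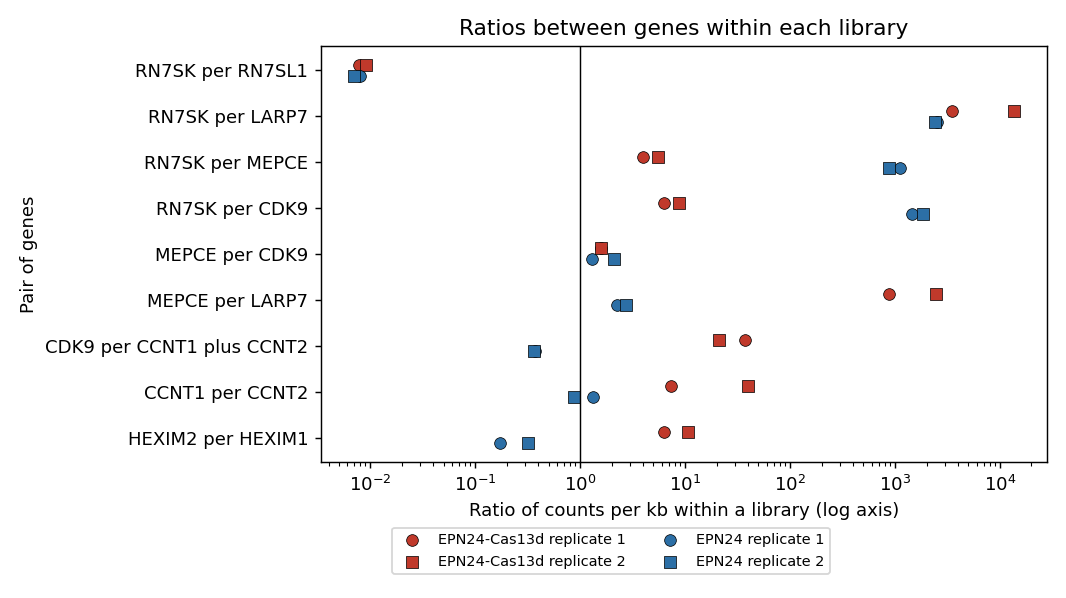
Ratio of counts per kb between the genes named on the left, on a log axis, with a point for each library. The ratios of RN7SK to RN7SL1 and of MEPCE to CDK9 overlap between the groups, while HEXIM2 per HEXIM1 and CDK9 per cyclins lie on opposite sides of 1.

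Levels per kb put 7SK first in both groups, at 366 ± 76.6 CPM per kb with Cas13d and 4862 ± 172 without (SD, n = 2). Behind it in EPN24-Cas13d came MEPCE (77.0 ± 1.60), CDK9 (49.7 and 47.6 in the 2 libraries), HEXIM2 (5.93 ± 0.0524), CCNT1 (1.68 ± 0.714), HEXIM1 (0.753 ± 0.279), CCNT2 (0.107 ± 0.0731) and LARP7 (0.0601 ± 0.0410), and of these neighbours only CCNT2 and LARP7 overlapped. In EPN24 the 7 messages lay much closer together. HEXIM1 led at 9.21 ± 0.553 CPM per kb, followed by MEPCE (4.91 ± 0.994), CCNT1 (4.24 ± 1.10), CCNT2 (3.87 ± 0.127), CDK9 (2.97 ± 0.415), HEXIM2 (2.25 ± 0.823) and LARP7 (1.96 ± 0.123). Overlaps there joined MEPCE with CCNT1, CCNT1 with CCNT2, CDK9 with HEXIM2 and HEXIM2 with LARP7. The last place of LARP7 in both groups rests on its gene length of 8094 bp. Its longest transcript has 2332 bases, and with that length LARP7 would stand higher in the order.

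Olfactory receptor genes, expressed chiefly in nasal tissue, give a level for RNA not known from kidney cells. Their 383 genes averaged 0.162 ± 0.0259 counts per kb in EPN24-Cas13d and 1.64 ± 0.304 in EPN24 (SD, n = 2). In EPN24 the messages of LARP7 and HEXIM2 stood at 2.60 and 2.96 times that density, CDK9 at 3.95, CCNT2 at 5.13, CCNT1 at 5.66, MEPCE at 6.49 and HEXIM1 at 12.2 times. With Cas13d LARP7 and CCNT2 stood at 1.53 and 2.73 times it and HEXIM1 at 19.1, while HEXIM2 reached 149, CDK9 1225 and MEPCE 1940 times. RN7SK stood at 9172 times it with Cas13d and 6447 times without. The multiples of LARP7 likewise depend on its gene length of 8094 bp. What part such reads have in the level of the sparse members was not tested beyond subtracting that density, which left LARP7 at -6.01, CCNT2 at -6.38, CCNT1 at -2.04 and HEXIM1 at -4.51, all called.

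Base composition differed between the messages that rose and those that fell. The 3 that rose had a GC content of 61.7% (MEPCE), 60.9% (HEXIM2) and 55.1% (CDK9) in their longest GENCODE transcript, and the 4 that fell had 48.2% (HEXIM1), 40.8% (CCNT1), 38.1% (LARP7) and 37.0% (CCNT2). RN7SK stood apart with 58.2% and a fall. HEXIM1 is GC-rich in its coding part (62.5%, close to the 65.0% of HEXIM2). However, 1834 of its 3600 bases run from the stop codon on at 37.4% GC, against 234 of 1528 bases at 53.8% in HEXIM2. The cyclin transcripts likewise carry 4572 (CCNT1) and 4697 (CCNT2) bases after the coding part, at 37.1% and 33.4% GC.

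Among all tested genes the log2 fold change rose with GC content. The median log2 fold change was -3.05 for 2580 genes under 40% GC and 1.94 for 2943 genes of at least 60%, rising in each step between. Within its own GC range CDK9 lay above 93.4% of genes and MEPCE above 86.7%. RN7SK lay above 11.2%, CCNT2 above 12.8%, LARP7 above 14.6% and HEXIM1 above 23.4%. HEXIM2 (41.4%) and CCNT1 (60.9%) lay in the middle. With a linear GC trend removed MEPCE stood at 2.34, CDK9 at 3.31, RN7SK at -4.88, HEXIM1 at -3.36, CCNT2 at -3.31 and LARP7 at -3.29, all called, and HEXIM2 and CCNT1 were not called. That left 2 members higher and 4 lower, where 71.9% of all tested genes were called, 30.3% higher and 41.7% lower.

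**Figure D4:**
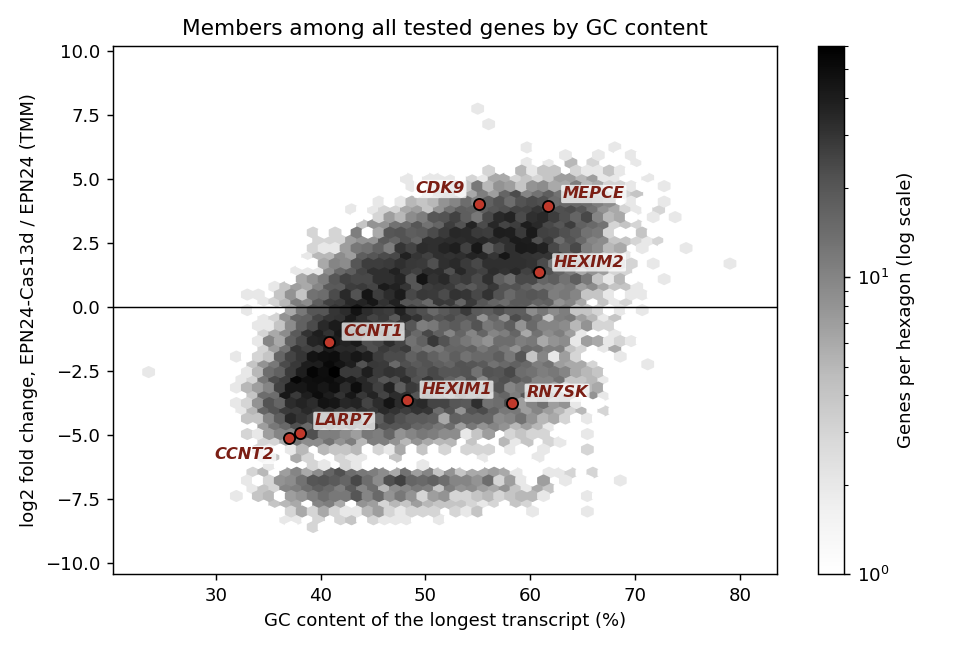
Log2 fold change under TMM against GC content of the longest transcript for all tested genes with a GC value, shaded by their number on a log scale, with the 8 members as red points. Messages that rose have a higher GC content than those that fell, but not in strict order. HEXIM1 (48.2% GC) lies lower than CCNT1 (40.8%), and HEXIM2 (60.9%) lower than CDK9 (55.1%). RN7SK sits low among genes of its GC range, above 11.2% of them.

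Messages of genes that bring P-TEFb to chromatin or work with it are read here against all tested genes, of which 32.6% were called higher and 48.2% lower. Of 13 tested recruiters and super elongation complex messages 8 were higher and 3 lower (median log2 fold change 1.92). MLLT1, a chromatin reader of the complex, measured 791 ± 48.4 against 35.9 ± 4.76 CPM (4.46), and DOT1L, a histone methyltransferase linked to it, 790.4 ± 30.4 against 48.7 ± 1.73 CPM (4.02) (SD, n = 2). Of 21 pausing and elongation factors, the substrates and neighbours of the kinase, 12 were higher and 8 lower (median 0.85). POLR2A, the largest subunit of RNA polymerase II, stood at 3.20 and SUPT6H, an elongation factor, at 2.46.

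Factors known to remodel 7SK or release P-TEFb from it had 10 higher and 7 lower of 19 (median 1.43), again beside 32.6% and 48.2% of all tested genes. TRIM28, a co-repressor that binds the 7SK complex at promoters, measured 2155 and 2216 against 87.4 and 62.5 CPM (4.86). HNRNPA2B1, an hnRNP that takes up 7SK when P-TEFb leaves, measured 21.3 ± 1.13 against 275 ± 19.2 CPM (-3.68, with -0.32 and no call once scaled to ERCC). Among the 7 La and La-related genes, the family of LARP7, 3 were higher and 3 lower (median -0.32). LARP1, a regulator of ribosomal protein messages, measured 1797 ± 25.5 against 82.6 ± 8.35 CPM (4.44), and LARP4B stood at 2.34. SSB, the La protein, stood at -4.37 and LARP7 at -4.90, a gap smaller than the SE of LARP7, 0.67. With ERCC scaling 12 recruiters, 15 pausing and elongation factors, 16 remodelling factors and 5 La-related genes were called higher and none lower, at medians of 5.29, 4.21, 4.81 and 3.06. Of all tested genes 58.4% were called higher and 2.33% lower there. Under TMM these 4 lists had members of both directions, as had the 8 genes of the complex.

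The other RNA polymerase III products give the setting for 7SK itself. Of 22 such small RNAs, RN7SK among them, 8 were tested, on 9 rows, and all 9 rows were lower under TMM (median -4.05), as were 48.2% of all tested genes. RPPH1, the RNA of RNase P, stood at -4.20 and RN7SL2 at -4.15. With ERCC scaling 5 of the 9 rows were lower and 1 higher (median -0.68), where 2.33% and 58.4% of all tested genes were, with RPPH1 at -0.82 and RN7SL2 at -0.77, both still called. Reads of several of these rows cannot be separated from those of loci that overlap them or are nearly identical, and RMRP is counted under 2 identifiers with the same values.

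The genes whose 4 values ran closest to those of RN7SK, by the distance between log2 CPM centred on each gene's mean, were sought among 6550 tested genes with a symbol and a mean of at least 20 CPM. First came the 7SK row itself at a distance of 0, then TPT1 (0.11), ANP32A (0.12), RN7SL4P (0.13) and TAF15 (0.16). TPT1, a translationally controlled protein gene, measured 19.4 ± 3.06 against 264 ± 3.50 CPM, ANP32A, a histone chaperone gene, 8.27 ± 2.18 against 108.9 ± 1.99, and TAF15, an RNA-binding protein gene, 17.0 ± 2.29 against 218 ± 3.66. RN7SL4P, a 7SL pseudogene, measured 21.5 ± 4.52 against 285 ± 35.1 CPM. Likeness over 4 libraries that fall into 2 groups is mostly likeness of the fold change, and other genes lie at distances nearly as small.

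**Figure D5:**
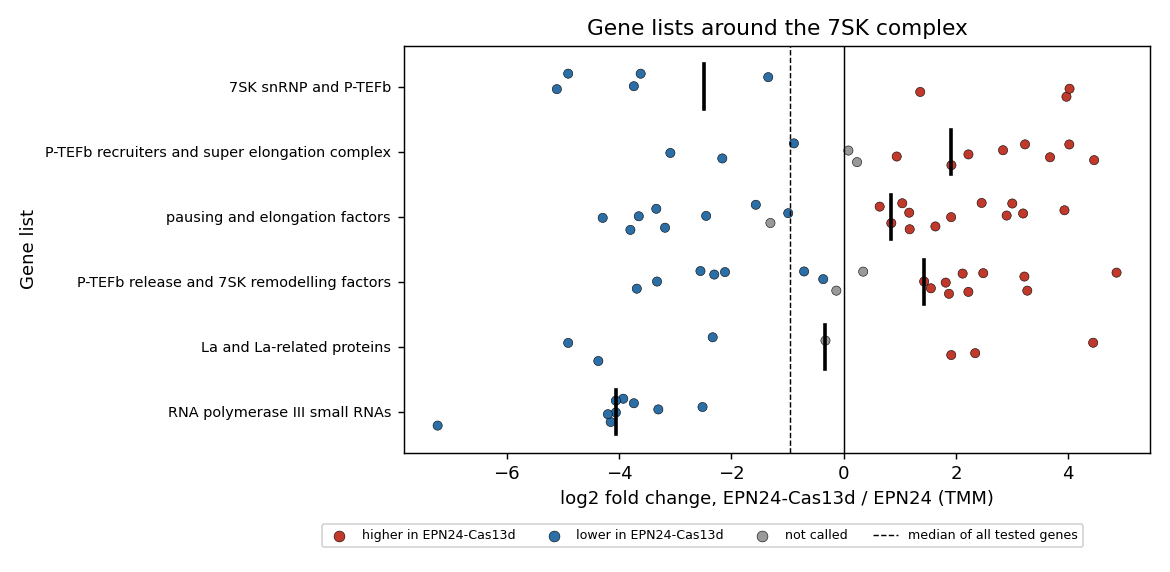
Log2 fold change under TMM of every tested row of 6 gene lists, coloured by call, with a black bar at each list's median and a dashed line at -0.96, the median of all tested genes. RN7SK is plotted with the complex and again with the RNA polymerase III RNAs, and LARP7 again with the La family. The RNA polymerase III RNAs all lie below 0 and the other lists spread to both sides.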

How the data were processed

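Total RNA of cleared culture supernatant was sequenced in 4 libraries with 17 PCR cycles, per the labels' protocols. Builds hg38 and GRCh38 and the tools STAR 2.7.10a, featureCounts 2.0.1 and DESeq2 1.36.0 stand in the submitters' processing notes. For strand, multi-mapping and overlap settings and the annotation release, nothing was found in the labels. The authors deposited expected counts per gene, read counts with fractions (7.83% to 9.20% of values per library not whole), without normalization, and a gene length in bp (other unit). Their second deposited table holds DESeq2's mean normalized count (signal), log2 fold change, Wald statistic (score) and p-values.

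Of 61640 rows, 5 pieces of 1 broken row were left out, leaving 61543 genes and 92 ERCC transcripts. Symbols came from the authors' table. Counts were rounded, filtered by filterByExpr (20476 genes), scaled by TMM without ERCC rows and fitted with edgeR 4.0.16 under R 4.3.3 (robust quasi-likelihood, Benjamini-Hochberg, threshold 0.05). Each approximate SE divides the size of the log2 fold change by the square root of F. Transcript sequences and GC content are those of the longest GENCODE release 29 transcript (97.3% of tested genes had one). Gene positions were read from the deposited count table, on GRCh38 per the submitters' processing notes. The labels name no molecular identifiers, so floors of 3 counts and intervals cover counting error only.

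The members and gene lists were chosen with earlier results of these data known. Named besides the members are the 2 genes of smallest p of each list, the 3 RN7SKP rows with most counts and the 5 genes nearest to RN7SK. One gene that this rule names is not reported here. Single values were tested by exact permutation. Alternatives used limma 3.58.1 and DESeq2 1.42.0 among others. The fit was also run on simulated counts of 20476 genes, with 100 changed 2-fold and 100 changed 4-fold. It recovered 24% and 81% of these, with 15 false calls. With so few changed genes it cannot test the scaling in data where 80.9% of genes were called.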

Additional observations from a re-analysis of the deposited data

How the results depend on the processing

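RN7SK, LARP7, MEPCE, HEXIM1, CDK9 and CCNT2 kept their direction in every alternative that tested them, and 3 of them (RN7SK, LARP7 and HEXIM1) lost the call in 1 alternative only, ERCC scaling, where 1 member was called lower in place of 5. CCNT1 turned to 2.00 with ERCC scaling and HEXIM2 to -0.14 with the GC trend removed. The stricter filter, of at least 10 counts in 2 libraries and a mean of 10 CPM, called 7356 of 9599 genes in place of 16556 of 20476, since fewer genes were tested. It did not test LARP7 and HEXIM2 and put MEPCE at 2.56, CDK9 at 2.61, RN7SK at -5.15, HEXIM1 at -5.02, CCNT1 at -2.75 and CCNT2 at -6.50, all still called and each lower by over 1 on the log2 scale. The labels do not say whether equal replicate numbers mark paired libraries. Deviations from the group means of the libraries numbered 1 correlated at -0.004 across genes, which cannot settle it. With the replicate block 15041 genes were called, and the members' calls were as without it. Leaving out 1 library at a time gave 13291 to 14495 called genes. In those fits the lone library is assumed to vary like the other group. The log2 ratio of the RN7SK share lay between -5.20 and -4.05 and that of RN7SK per ERCC count between -0.63 and -0.14 over their alternatives. Summing overlapping rows and subtracting the olfactory receptor density were chosen after seeing the data. Depth limits LARP7 and CCNT2 in EPN24-Cas13d and HEXIM2 in EPN24.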
